A study of Mus musculus with 14 samples.

Results

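Calcium cycling through the sarcoplasmic reticulum (SR) of the left ventricle was described by 10 genes, picked by their symbols out of the 49315 genes in the table of counts. They were the calcium pump Atp2a2 (SERCA2) with its regulators Pln and Sln, the luminal proteins Casq1, Casq2 and Hrc, the release complex with Ryr2, Trdn and Jph2, and the sodium-calcium exchanger Slc8a1. All of them were found once in the table, and 9 had enough reads for a test, with Sln left out. Left ventricular mRNA, selected by its polyA tail, came from male wild-type (WT) mice and from the knock-in line HCN4F, in which a tyrosine in the C-linker of the pacemaker channel HCN4 is replaced by phenylalanine, a gain-of-function change. The mice underwent transverse aortic constriction (TAC), which raises the pressure load on the ventricle, or a Sham operation at 10 to 12 weeks of age, and tissue was taken 5 weeks later. The groups were WT-Sham (n = 4), WT-TAC (n = 2), HCN4F-Sham (n = 4) and HCN4F-TAC (n = 4). The exchange of an amino acid leaves the Hcn4 transcript in place, so its level does not check the labels. It was 8.07 to 10.6 CPM (each library's counts scaled to the same total by TMM) in WT-Sham, 11.9 and 13.5 CPM in WT-TAC, 6.36 to 12.99 CPM in HCN4F-Sham and 3.49 to 9.07 CPM in HCN4F-TAC. The TAC groups did not overlap, at a log2 difference of -0.92 between HCN4F and WT (adjusted p = 0.238 in edgeR), and the Sham groups did. The knock-in is present in the whole animal and the labels give its zygosity for no sample.

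At each heart beat, calcium entering through the L-type channel opens the ryanodine receptor RyR2, and calcium leaves the SR to start contraction. SERCA2 pumps most of it back during relaxation, and the exchanger NCX1, made from Slc8a1, carries the remainder out of the cell. Phospholamban (Pln) and sarcolipin (Sln) are small membrane proteins that restrain the pump, while calsequestrin, triadin and the histidine-rich calcium-binding protein Hrc store calcium in the SR and couple the store to the receptor. Lower SERCA2 relative to phospholamban and more exchanger are textbook features of the failing ventricle.

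Libraries held 22309914 to 35210939 counted reads, and the 10 members together took 1.53% to 2.36% of the scaled counts. Atp2a2 alone made up 55.0% to 65.3% of the members' counts. A count of 0 allows up to 3 reads in a library, or 0.0859 to 0.137 CPM, which covers counting error only. Of the markers listed for the labelled tissue, all 8 ventricular cardiomyocyte genes were found above this limit in every library, with a summed level of 50743 to 70295 CPM. Most of this sum came from Myh6 and other genes not restricted to the ventricle, so it does not tell ventricle from atrium. Of 11 skeletal muscle genes, Myh1 and Myh4 were at or under 3 reads in all 14 libraries, while Cacna1s (7.71 to 15.1 CPM), Mylpf, Tnnt3 and Tnni2 were above 3 reads in every library. RNA was measured in whole tissue, so fewer cardiomyocytes and less RNA per cardiomyocyte cannot be told apart. Replicates were labelled as separate samples, and the study describes them as biological replicates.

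After TAC, HCN4F hearts had less Hrc and Trdn and more Casq2, and WT hearts had more Slc8a1, a call in WT that held in 8 of 14 alternative fits and in neither fit without a WT-TAC library. Hrc was 1176 ± 47.1 CPM in HCN4F-Sham and 842 ± 129 CPM in HCN4F-TAC (SD, n = 4 each), and Slc8a1 rose from 111 ± 19.7 CPM in WT-Sham (SD, n = 4) to 207 ± 15.0 CPM in WT-TAC (SD, n = 2). None of the 9 tested members differed between HCN4F and WT, in Sham or in TAC hearts, at an adjusted p under 0.05 in edgeR's quasi-likelihood test, which only 0.471% of all tested genes passed in Sham and 0.111% in TAC hearts. The pump Atp2a2 and phospholamban passed in no comparison. Sln was near 0 in all libraries but HCN4F-TAC replicate 2. That library also had the highest levels of the atrial light chain genes Myl7 and Myl4, but the lowest of the atrial genes Kcnj3 and Kcnj5.

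**Figure D1:**
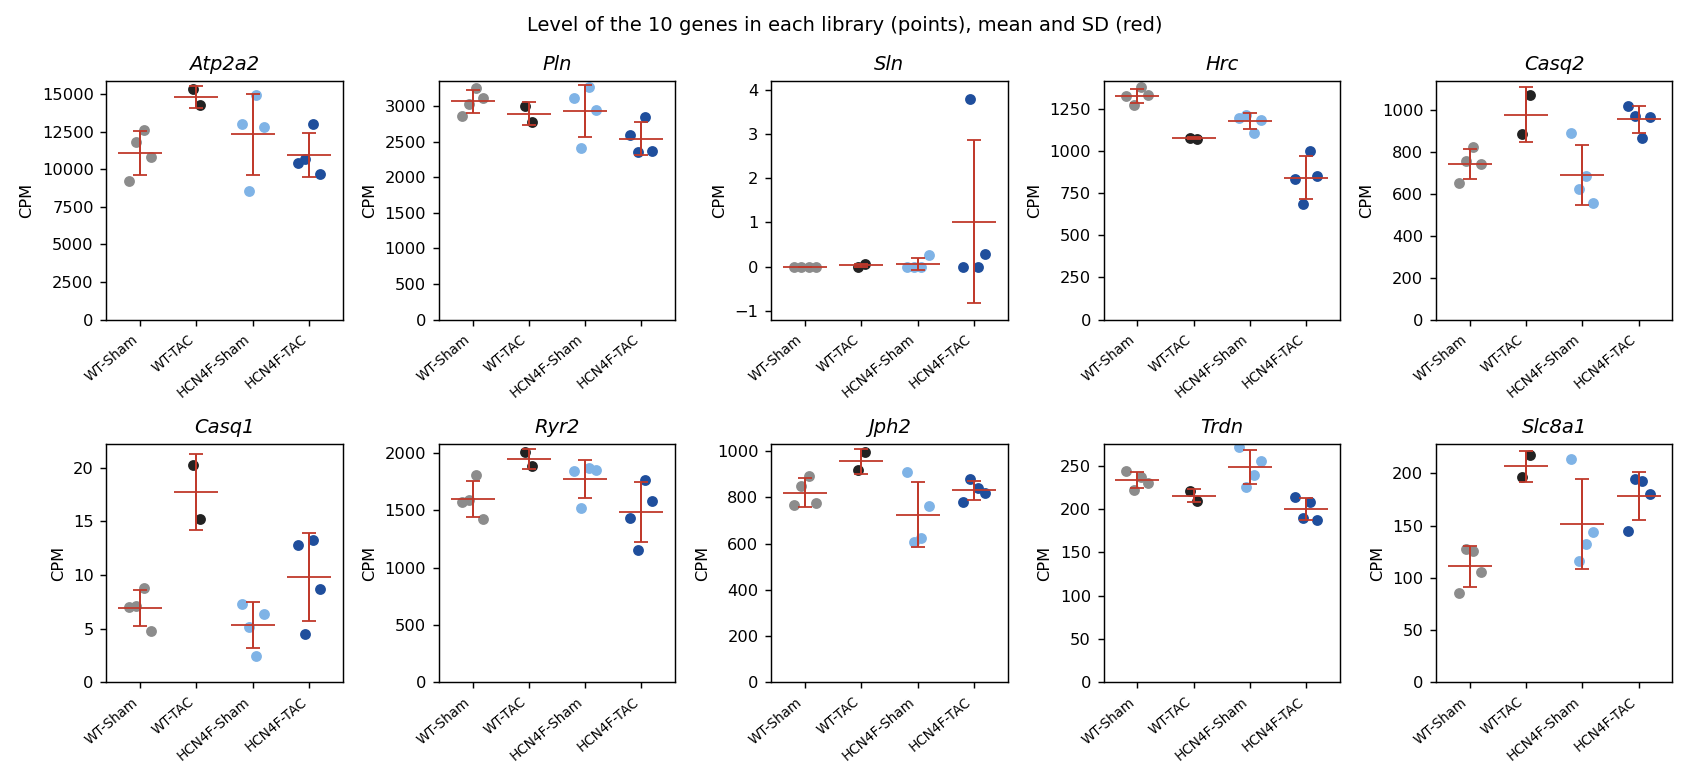
CPM of each of the 10 genes (vertical axes, each with its own scale) in the 14 libraries (points), sorted by group, with mean and SD in red. Hrc and Trdn sit lower in the TAC groups, Slc8a1 and Casq1 have their highest means in WT-TAC, and a single point lifts Sln in HCN4F-TAC to 3.79 CPM.

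The order of the members was set by their level per length, in CPM per kb of exon, since longer transcripts give more reads. Atp2a2 stood first with a mean of 1963 CPM per kb over 14 libraries (range 1407 to 2516). Pln came next with 1035 CPM per kb (855 to 1185), and its range did not meet that of Atp2a2. Hrc followed with 432 CPM per kb (266 to 538) and Casq2 with 301 CPM per kb (204 to 391.9), and the order of these neighbours held in 11 of 14 libraries only. Casq2 was above Jph2 in all 14 libraries, although their ranges overlapped, since Jph2 had 192 CPM per kb (143 to 234). Ryr2 reached 57.9 CPM per kb (39.99 to 69.9) and Trdn 24.1 CPM per kb (20.1 to 29.0), each apart from its neighbours. Slc8a1 had 8.27 CPM per kb (4.56 to 11.5) and Casq1 4.53 CPM per kb (1.24 to 10.4), with Slc8a1 the higher in all 14 libraries. Taking the length of the longest coding transcript in place of all exons left the order of the 10 genes as it was, but raised Ryr2 to 99.1 and Trdn to 49.97 CPM per kb.

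**Figure D2:**
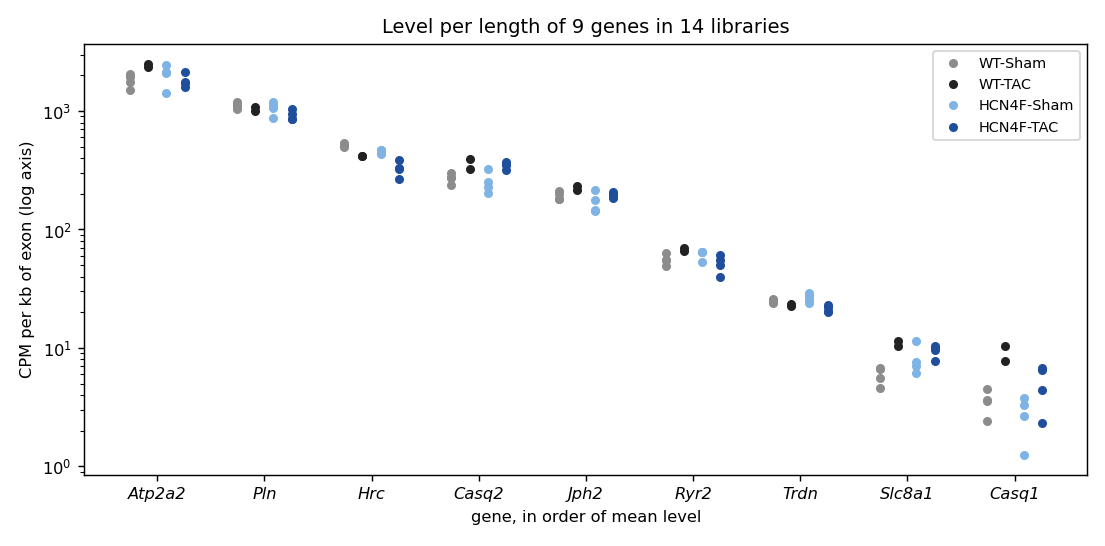
Level per length of the 9 tested members in CPM per kb of exon (log axis) in each of the 14 libraries, coloured by group. The genes run from Atp2a2 at 1407 to 2516 down to Casq1 at 1.24 to 10.4, and the groups of a gene lie close together compared with the steps between most genes.

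Atp2a2 (ENSMUSG00000029467; chr5:122453513-122502225, minus strand, GRCm38) encodes the SERCA2 pump. Its level was 9199, 11829, 12596 and 10793 CPM in WT-Sham replicates 1 to 4 and 15303 and 14271 CPM in WT-TAC replicates 2 and 3. In HCN4F-Sham it was 12994, 8556, 14942 and 12819 CPM, and in HCN4F-TAC 10446, 10711, 13028 and 9651 CPM. Both WT-TAC libraries lay above every WT-Sham and every HCN4F-TAC library, whereas the HCN4F groups overlapped. After TAC the log2 fold change was 0.41 in WT (standard error 0.17, adjusted p = 0.180) and -0.17 in HCN4F (standard error 0.14, adjusted p = 0.474), so neither passed in edgeR's quasi-likelihood test. In the WT comparison Atp2a2 did pass when edgeR was fitted on the 2 compared groups alone (adjusted p = 0.0308). Library HCN4F-Sham replicate 2 had the lowest Atp2a2 level of all, and without it the log2 fold change after TAC in HCN4F was -0.31 (adjusted p = 0.0925 in edgeR), whereas without HCN4F-Sham replicate 3 it was -0.07 (adjusted p = 0.786).

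Pln (ENSMUSG00000038583; chr10:53337667-53345987, plus strand) encodes phospholamban, which inhibits SERCA2 until it is phosphorylated. The open reading frame is shown because of its phosphorylation sites, the serine and threonine codons 16 and 17 in capitals, and lies in a single exon at chr10:53343864-53344022 (GRCm38, GENCODE M21, plus strand, 159 bases).
Pln: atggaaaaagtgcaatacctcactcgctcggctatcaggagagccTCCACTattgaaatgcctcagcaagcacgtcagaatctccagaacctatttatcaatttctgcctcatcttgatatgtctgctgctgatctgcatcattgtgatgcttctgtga
The level of Pln was 2868, 3028, 3263 and 3119 CPM in WT-Sham and 3006 and 2781 CPM in WT-TAC. It was 3114, 2420, 3269 and 2943 CPM in HCN4F-Sham and 2597, 2359, 2852 and 2367 CPM in HCN4F-TAC. The groups of a genotype overlapped, and the HCN4F-TAC libraries had the lowest mean, 2543 ± 233 CPM (SD, n = 4). TAC gave a log2 fold change of -0.09 in WT (standard error 0.11, adjusted p = 0.700) and -0.21 in HCN4F (standard error 0.09, adjusted p = 0.148), neither of which passed in edgeR's test. Without HCN4F-Sham replicate 2, which was also low for Pln, the value in HCN4F was -0.29 and passed (adjusted p = 0.0297 in edgeR), with -0.29 to -0.16 over all fits that left out 1 library. Exons of Pln share 141 bases with the opposite-strand gene Cep85l, and use of strand in counting was not given in the sources used here.

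Sln (ENSMUSG00000042045; chr9:53850164-53854560, plus strand) encodes sarcolipin, which in the heart is mainly an atrial regulator of the pump. Its open reading frame, 96 bases at chr9:53853473-53853568 (GRCm38, GENCODE M21, plus strand), is shown for comparison with that of Pln, with the start codon in capitals.
Sln: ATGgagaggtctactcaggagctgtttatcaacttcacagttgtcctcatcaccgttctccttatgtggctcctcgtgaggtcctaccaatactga
Sln had 115 reads, or 3.79 CPM, in HCN4F-TAC replicate 2. It had 9 reads (0.272 CPM) in HCN4F-Sham replicate 4, 7 reads (0.285 CPM) in HCN4F-TAC replicate 4 and 2 reads in WT-TAC replicate 3, and 0 in the other 10 libraries. With 11 of 14 libraries at or under the limit of 3 reads, no fold change was calculated. The atrial myosin light chain genes Myl7 and Myl4 reached 9.91 and 17.3 CPM in HCN4F-TAC replicate 2, against at most 0.694 and 4.07 CPM elsewhere. The summed level of all 8 atrial genes in HCN4F-TAC was 81.2 to 93.7 CPM, below the 102 to 125 CPM of HCN4F-Sham. Kcnj3 and Kcnj5 were lower in HCN4F-TAC replicate 2, at 12.4 and 29.0 CPM, than in every other library, and Bmp10 was at or under 3 reads in 13 of 14 libraries. Sln lies 4.97 Mb from Hcn4 on chromosome 9.

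**Figure D3:**
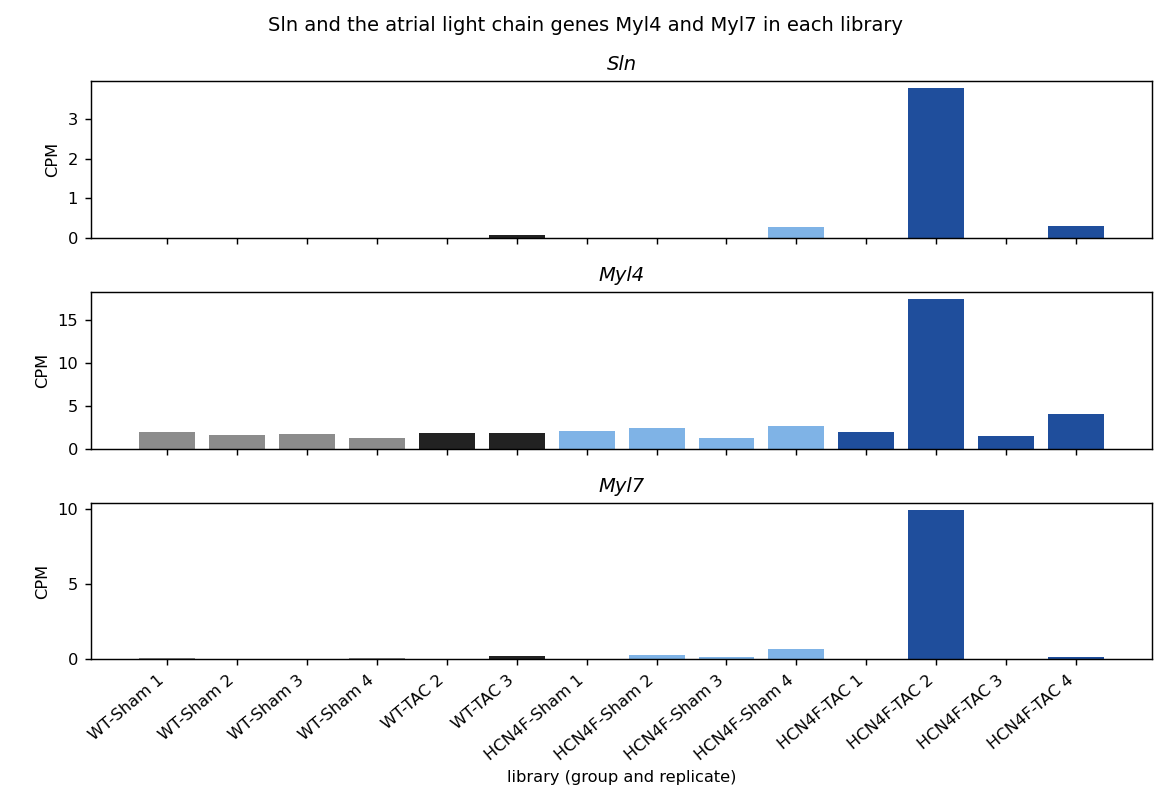
CPM of Sln, Myl4 and Myl7 (bars, linear axes from 0) in each of the 14 libraries, coloured by group. HCN4F-TAC replicate 2 holds the tallest bar in all 3 panels, with 3.79 CPM of Sln, 17.3 CPM of Myl4 and 9.91 CPM of Myl7.

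The comparison of TAC with Sham asks how the members respond to pressure overload in each genotype. In WT, 1 of 9 tested members rose (Slc8a1) and 0 fell, where 2.92% of all 15292 tested genes rose and 1.62% fell at an adjusted p under 0.05 in edgeR's test. In HCN4F, 1 of 9 rose (Casq2) and 2 fell (Hrc and Trdn), where 7.2% of tested genes rose and 6.41% fell. At an unadjusted p under 0.05 there were 5 of 9 members in WT, against 22.0% of all tested genes, and 6 of 9 in HCN4F, against 28.3%. Under the study's stricter rule, which adds a log2 fold change above 1 or below -1, 0 of 9 members passed in either genotype, against 0.706% of tested genes in WT and 2.75% in HCN4F. The median log2 fold change of the 9 members was 0.29 in WT and -0.17 in HCN4F, and that of all tested genes was -0.02 and -0.01. In WT, 6 members were higher in both TAC libraries than in all Sham libraries and 2 were lower, which was so for 19.2% and 20.0% of all tested genes in a comparison of 2 with 4 libraries. In HCN4F, 0 members were higher without overlap and 2 were lower, against 7.95% and 7.16% of tested genes.

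**Figure D4:**
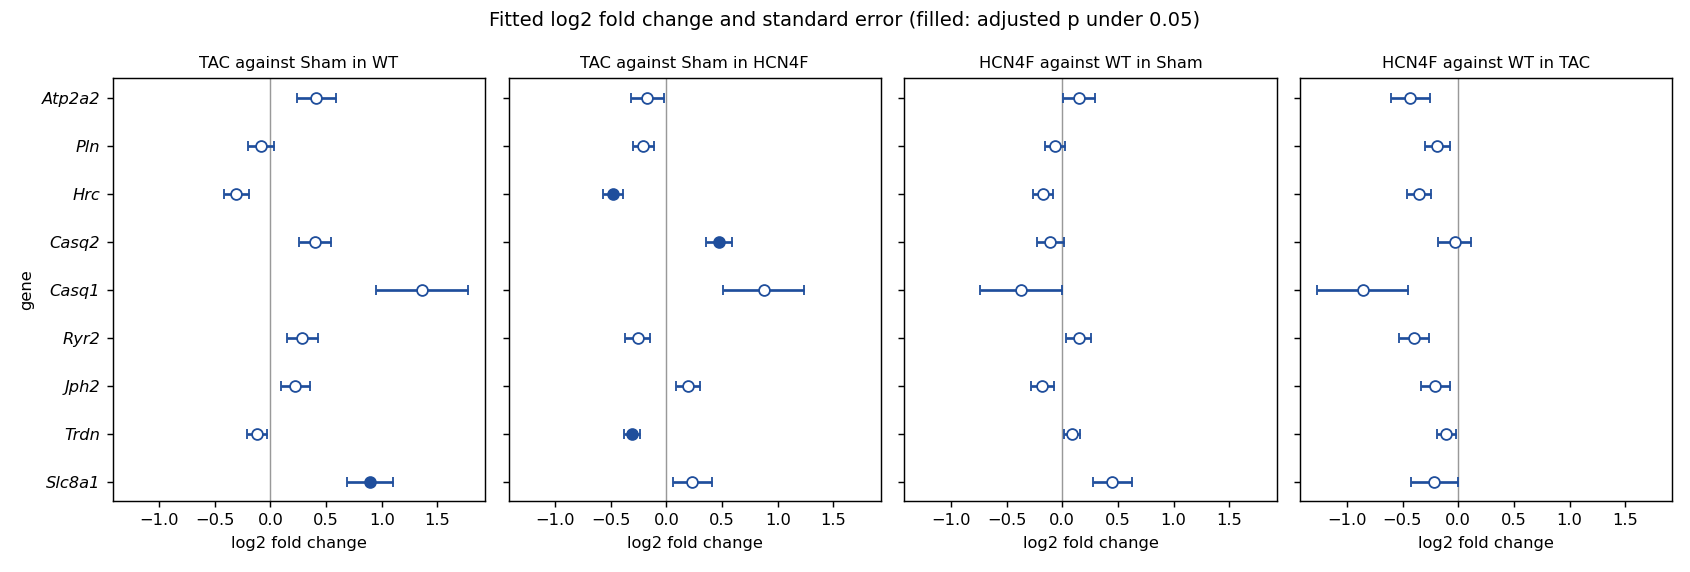
Log2 fold change with its standard error from edgeR for the 9 tested members in the 4 comparisons, with filled points where the adjusted p was under 0.05. Filled points are Slc8a1 after TAC in WT and Hrc, Casq2 and Trdn after TAC in HCN4F, and no point is filled between genotypes.

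Hrc (ENSMUSG00000038239; chr7:45335290-45338974, plus strand) encodes a calcium buffer of the SR lumen that binds both SERCA2 and triadin. Its level was 1323, 1275, 1380 and 1332 CPM in WT-Sham and 1079 and 1070 CPM in WT-TAC. It was 1197, 1214, 1108 and 1186 CPM in HCN4F-Sham and 836, 684, 998 and 850 CPM in HCN4F-TAC. In each genotype every TAC library lay below every Sham library, and all HCN4F libraries lay below the WT libraries of the same surgery. In HCN4F the log2 fold change after TAC was -0.48 (standard error 0.09, 0.716-fold, adjusted p = 0.00201 in edgeR), and it passed in all 16 alternative fits. In WT it was -0.30 (standard error 0.11, adjusted p = 0.116), which did not pass in the fit on all groups but did in the edgeR fit on the WT groups alone (adjusted p = 0.0117). The difference between the genotypes in this response was -0.18 (standard error 0.14, adjusted p = 0.723 in edgeR). Between genotypes Hrc differed by -0.17 in Sham (standard error 0.09, adjusted p = 0.360) and by -0.35 in TAC hearts (standard error 0.11, adjusted p = 0.186), and neither passed in edgeR's test. The value in TAC hearts passed without HCN4F-TAC replicate 3, at -0.44 (adjusted p = 0.0189 in edgeR).

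Casq2 (ENSMUSG00000027861; chr3:102086415-102146514, plus strand) encodes cardiac calsequestrin, the main calcium-storing protein of the SR in heart muscle. It had 651, 756, 822 and 742 CPM in WT-Sham and 885 and 1072 CPM in WT-TAC. It had 891, 622, 686 and 559 CPM in HCN4F-Sham and 1020, 972, 869 and 966 CPM in HCN4F-TAC. The HCN4F groups overlapped through HCN4F-Sham replicate 1, which exceeded HCN4F-TAC replicate 3. The log2 fold change after TAC was 0.47 in HCN4F (standard error 0.12, 1.39-fold, adjusted p = 0.0154 in edgeR) and passed in all 16 alternative fits. In WT it was 0.40 (standard error 0.15, adjusted p = 0.121 in edgeR), and it passed there in fits on the compared groups alone (adjusted p = 0.0245 with edgeR and 0.0025 with DESeq2). The difference between the genotypes in this response was 0.07 (standard error 0.19, adjusted p = 0.936).

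Casq1 (ENSMUSG00000007122; chr1:172209894-172219868, minus strand) encodes the calsequestrin of fast skeletal muscle. It had 6.99, 7.07, 8.83 and 4.74 CPM in WT-Sham and 20.2 and 15.3 CPM in WT-TAC. It had 7.34, 5.16, 2.42 and 6.37 CPM in HCN4F-Sham and 12.8, 4.51, 13.3 and 8.66 CPM in HCN4F-TAC. Both WT-TAC libraries stood above all others. After TAC the log2 fold change was 1.36 in WT (standard error 0.41, adjusted p = 0.0822) and 0.87 in HCN4F (standard error 0.37, adjusted p = 0.138), and neither passed in edgeR's test. In WT, Casq1 passed in 4 of 14 alternative fits, which were DESeq2 on all groups (adjusted p = 0.0474), DESeq2 and edgeR on the compared groups (adjusted p = 3.788e-10 and 0.00704) and edgeR without the robust option (adjusted p = 0.0452). It passed in HCN4F without HCN4F-TAC replicate 2 (1.12, adjusted p = 0.0430 in edgeR), with 0.62 to 1.12 over all fits that left out 1 library. The summed level of the 11 skeletal muscle genes was 12.97 to 17.7 CPM in WT-Sham and 13.1 to 14.8 CPM in WT-TAC, and most of it was Cacna1s. Without Cacna1s the sum of the other 10 was 2.22 to 2.99 CPM in WT-Sham and 2.26 to 2.78 CPM in WT-TAC. Only 4 of the 11 had enough reads for a test. In HCN4F the sum of all 11 was 12.3 to 14.5 CPM in Sham and 9.54 to 13.8 CPM in TAC hearts, with Tnnt3 higher and Tnni2 lower after TAC in edgeR's test. Exons of Casq1 share 156 bases with the opposite-strand gene Gm17224, which had a mean of 0.152 CPM.

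Ryr2 (ENSMUSG00000021313; chr13:11553102-12106945, minus strand) encodes the calcium release channel of the cardiac SR. It had 1575, 1589, 1806 and 1423 CPM in WT-Sham, 2012 and 1889 CPM in WT-TAC, 1840, 1522, 1870 and 1855 CPM in HCN4F-Sham and 1434, 1151, 1769 and 1581 CPM in HCN4F-TAC. WT-TAC had the highest mean and HCN4F-TAC the lowest, and these did not overlap. The log2 fold change after TAC was 0.29 in WT (standard error 0.14, adjusted p = 0.229) and -0.26 in HCN4F (standard error 0.11, adjusted p = 0.146), and neither passed in edgeR's test. In WT it passed when only the compared groups were fitted (adjusted p = 0.0372 with edgeR and 0.0191 with DESeq2), and in HCN4F without HCN4F-TAC replicate 3 (-0.35, adjusted p = 0.0399 in edgeR), whereas without HCN4F-TAC replicate 2 it was -0.15 (adjusted p = 0.371). The genotypes differed in this response by -0.54 (standard error 0.18, unadjusted p = 0.00705, adjusted p = 0.439 in edgeR), so the opposite signs did not pass the test of their difference.

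Jph2 (ENSMUSG00000017817; chr2:163336242-163397993, minus strand) encodes junctophilin 2, which holds the T-tubule and the SR membrane together. Its levels were 766 to 892 CPM in WT-Sham, 919 and 995 CPM in WT-TAC, 607 to 911 CPM in HCN4F-Sham and 780 to 881 CPM in HCN4F-TAC. HCN4F-Sham was the most spread group and held the 2 lowest libraries and also one above all of HCN4F-TAC. TAC gave a log2 fold change of 0.22 in WT (standard error 0.13, adjusted p = 0.336) and 0.19 in HCN4F (standard error 0.11, adjusted p = 0.251), and neither passed in edgeR's test. Without HCN4F-Sham replicate 1 the value in HCN4F was 0.32 and passed (adjusted p = 0.0243 in edgeR), whereas it was 0.12 without HCN4F-Sham replicate 2 (adjusted p = 0.513) or 3 (adjusted p = 0.502).

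Trdn (ENSMUSG00000019787; chr10:33080554-33476709, plus strand) encodes triadin, which anchors calsequestrin to the ryanodine receptor. It had 244, 222, 237 and 230 CPM in WT-Sham and 221 and 210 CPM in WT-TAC. It had 271, 226, 239 and 256 CPM in HCN4F-Sham and 214, 190, 208 and 188 CPM in HCN4F-TAC. In both genotypes each TAC library lay below each Sham library, by a narrow margin in WT. The log2 fold change after TAC was -0.31 in HCN4F (standard error 0.07, 0.806-fold, adjusted p = 0.00915 in edgeR) and passed in all 16 alternative fits. In WT it was -0.12 (standard error 0.09, adjusted p = 0.462 in edgeR), and the difference between the genotypes in this response was -0.19 (standard error 0.11, adjusted p = 0.624).

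Slc8a1 (ENSMUSG00000054640; chr17:81373105-81738377, minus strand) encodes the sodium-calcium exchanger NCX1 of the cell membrane. It had 85.8, 128, 126 and 105 CPM in WT-Sham and 196 and 217 CPM in WT-TAC. It had 214, 116, 133 and 144 CPM in HCN4F-Sham and 145, 194, 193 and 180 CPM in HCN4F-TAC. The WT groups were far apart, whereas HCN4F-Sham replicate 1 exceeded every HCN4F-TAC library. The log2 fold change after TAC was 0.90 in WT (standard error 0.21, 1.86-fold, adjusted p = 0.0314 in edgeR), the largest rise of a called member. This call was lost in 6 of 14 alternative fits, among them the edgeR fit without WT-TAC replicate 2 (0.97, adjusted p = 0.1001), without WT-TAC replicate 3 (0.82, adjusted p = 0.273), without WT-Sham replicate 1 (0.78, adjusted p = 0.0800) and without WT-Sham replicate 4 (0.87, adjusted p = 0.0851). In HCN4F the value was 0.23 (standard error 0.17, adjusted p = 0.410 in edgeR) and became 0.45 without HCN4F-Sham replicate 1, where it passed (adjusted p = 0.0416). The difference between the genotypes in the response was -0.66 (standard error 0.27, unadjusted p = 0.0293, adjusted p = 0.491 in edgeR).

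Upstream sequence is shown for the called members that RefSeq lists with a promoter, Hrc, Casq2 and Slc8a1, to set those that fell and rose beside each other. Each line gives the 150 bases before the RefSeq start, from the annotation of GRCm38.p6, at chr7:45335119-45335268 (plus strand) for Hrc, chr3:102086265-102086414 (plus strand) for Casq2 and chr17:81738388-81738537 (minus strand) for Slc8a1.
Hrc: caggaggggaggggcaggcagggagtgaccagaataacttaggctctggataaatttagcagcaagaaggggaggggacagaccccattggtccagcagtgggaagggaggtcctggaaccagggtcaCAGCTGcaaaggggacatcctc
Casq2: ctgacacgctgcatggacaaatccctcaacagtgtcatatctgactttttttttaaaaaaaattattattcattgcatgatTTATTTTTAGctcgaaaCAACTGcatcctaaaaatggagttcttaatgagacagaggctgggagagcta
Slc8a1: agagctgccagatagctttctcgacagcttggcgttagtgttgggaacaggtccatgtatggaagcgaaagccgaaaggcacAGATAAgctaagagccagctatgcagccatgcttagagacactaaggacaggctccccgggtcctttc
Capitals mark matches to any of 7 motifs, searched over 250 bases before the start of 32851 promoters, and no 2 matches in these lines overlap. The E-box CANNTG, read on both strands, was found in all 7 members with a listed promoter and in 66.2% of all promoters. The GATA motif AGATAA, on both strands, was found in Pln and Slc8a1 and in 9.99% of promoters, and a MEF2 site, on both strands, in Casq2 alone of the members and in 2.92%. GGGCGG, on both strands, was found in Casq1, Jph2 and Hrc and in 32.7% of promoters, and TATAAA on the strand of the gene in Pln and in 7.59%. CATTCC and the CArG box, on both strands, were found in 0 of the 7 members and in 12.6% and 1.47% of promoters. Trdn had no entry.

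Between genotypes the comparison asks whether the knock-in changes the members with and without pressure overload. In Sham hearts 0 of 9 members passed, where 0.229% of tested genes were higher and 0.242% lower in HCN4F at an adjusted p under 0.05 in edgeR, and 0.209% passed the stricter rule. At an unadjusted p under 0.05 there was 1 of 9 members, against 15.2% of tested genes, namely Slc8a1 at 0.45 (standard error 0.17, adjusted p = 0.248), which was 0.24 without HCN4F-Sham replicate 1 (adjusted p = 0.338). Hrc was the only member lower in HCN4F-Sham without overlap and 0 were higher, against 4.67% and 3.89% of tested genes. In TAC hearts 0 of 9 passed, where 0.0589% of tested genes were higher and 0.0523% lower and 0.0719% passed the stricter rule in edgeR. All 9 log2 fold changes were below 0 there, with a median of -0.21 against 0.00 for all tested genes, and unadjusted p was under 0.05 for Atp2a2, Ryr2 and Hrc, 3 of 9 members against 12.5% of tested genes. Summed marker levels of some lists also stood apart between these groups, though 0 genes of these lists passed in edgeR. The 8 ventricular genes were at 62323 and 62403 CPM in WT-TAC and 50743 to 57076 CPM in HCN4F-TAC, and the 6 fibroblast genes at 553 and 652 CPM and 714 to 1151 CPM. The 4 erythroid genes were narrowly apart, at 84.7 and 94.3 CPM in WT-TAC and 94.8 to 347 CPM in HCN4F-TAC. The part of these lists in the members' values was not tested. Atp2a2 differed by -0.43 (standard error 0.17, adjusted p = 0.327) and Ryr2 by -0.39 (standard error 0.14, adjusted p = 0.242) in edgeR. Of the members, 6 were lower in HCN4F-TAC without overlap and 0 higher, against 11.0% and 11.3% of tested genes in this comparison of 4 with 2 libraries. The response to TAC differed between genotypes for 0 of 9 members, as for 0.0% of tested genes in edgeR, and at an unadjusted p under 0.05 for Atp2a2, Ryr2 and Slc8a1, all with a smaller value in HCN4F, 3 of 9 members against 9.27% of tested genes. DESeq2 on all groups also called 0 members in these 3 tests. The comparisons share libraries, WT-TAC above all, whose 2 libraries enter the response in WT, the genotype comparison in TAC hearts and the test of the difference.

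Ratios of 2 members within a library do not depend on its scaling, and 12 differences were tested by exact permutation over libraries, two-sided, with adjustment over the 12. The ratio of Pln to Atp2a2 counts (not corrected for length) was 0.278 in WT-Sham, 0.196 in WT-TAC, 0.242 in HCN4F-Sham and 0.233 in HCN4F-TAC, as geometric means. The log2 ratio in WT-TAC differed from that in WT-Sham by -0.51, with no overlap of the groups (exact p = 0.133, adjusted p = 0.267). With 4 against 2 libraries 0.133 is the smallest p that can be reached, and with 4 against 4 it is 0.0286. In HCN4F the difference after TAC was -0.05 (exact p = 0.629). The ratio of Slc8a1 to Atp2a2 was 0.00996 in WT-Sham, 0.0140 in WT-TAC, 0.0122 in HCN4F-Sham and 0.0162 in HCN4F-TAC, with a log2 difference after TAC of 0.49 in WT (exact p = 0.133) and 0.41 in HCN4F (exact p = 0.114). With 1 library left out, these differences ranged from 0.36 to 0.61 in WT and from 0.26 to 0.56 in HCN4F. The ratio of Casq1 to Casq2 was 0.00921 in WT-Sham, 0.0181 in WT-TAC, 0.00736 in HCN4F-Sham and 0.00953 in HCN4F-TAC, with a difference after TAC of 0.98 in WT (exact p = 0.133) and 0.37 in HCN4F (exact p = 0.429). The latter fell to 0.035 when HCN4F-Sham replicate 3 was left out and reached 0.71 when HCN4F-TAC replicate 2 was, and the former fell to 0.64 without WT-TAC replicate 2. The lowest adjusted p was 0.267. With adjustment over the 12, no outcome in this design could have reached 0.05, so these p-values say nothing on whether the ratios differed.

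Correlations between members were taken over the 14 libraries, which share depth and group differences. Of the 36 pairs of tested members, 12 had a Pearson correlation of log2 CPM below 0, and 2 had one after the group means were taken out (median 0.37). Within groups the highest values were 0.92 between Atp2a2 and Pln and 0.89 between Slc8a1 and Jph2, which correlated at 0.64 and 0.61 over all libraries. With the group means left in, the highest Pearson correlation of log2 CPM was 0.75 between Trdn and Hrc, both lower after TAC, and 0.36 after the group means were taken out. The lowest was -0.61 between Casq2 and Hrc, and -0.15 without the group means. Atp2a2 and Ryr2 correlated at 0.71, and at 0.58 within groups. Outside the members, the genes most like Atp2a2 among 12555 with a mean of at least 1 CPM were Vwa8 (r = 0.958), Pnpla8 (0.949) and Scrn3 (0.946). Those most like Casq1 were Myo18b (0.886), Slc47a1 (0.876) and B3galt2 (0.850). For Sln they were the atrial light chain Myl4 (0.942), Pcdhb17 (0.872) and Bin1 (0.869), and without HCN4F-TAC replicate 2 these values fell to 0.755, 0.617 and 0.521.

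A wider list of 56 calcium-handling genes outside the members held 55 with enough reads for a test. After TAC in WT, 2 of 55 rose and 1 fell in edgeR's test, where 2.92% and 1.62% of all tested genes did, and in HCN4F 5 of 55 rose and 5 fell, where 7.2% and 6.41% did, so the list lay near the share of all genes. Their median log2 fold change was -0.02 in WT and 0.02 in HCN4F, near that of all tested genes. Between genotypes 1 of 55 was lower in HCN4F-Sham, where 0.242% of all tested genes were, and 0 passed in TAC hearts, where 0.0589% of all were higher and 0.0523% lower.

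Among inhibitors and activators of the pump, Strit1 (listed under its older symbol Gm34302), which encodes the micropeptide DWORF that counteracts phospholamban, fell after TAC in HCN4F. Its level was 9.11 to 15.0 CPM in HCN4F-Sham and 4.05 to 7.95 CPM in HCN4F-TAC, with no overlap (-0.90, standard error 0.18, adjusted p = 0.00416 in edgeR). In WT it was 7.34 to 8.65 CPM in Sham and 5.997 and 7.90 CPM in TAC hearts (-0.18, standard error 0.22, adjusted p = 0.684 in edgeR). The Sham level of Strit1 differed by 0.58 between HCN4F and WT (standard error 0.18, adjusted p = 0.143 in edgeR), which did not pass. In TAC hearts the genotypes differed by -0.14, and the difference of the TAC responses was -0.72 (adjusted p = 0.484 in edgeR). Mrln, which encodes the inhibitor myoregulin, fell in HCN4F from 0.544 ± 0.244 to 0.174 ± 0.0439 CPM (SD, n = 4 each; -1.61, adjusted p = 0.00858 in edgeR), a level close to 3 reads in some HCN4F-TAC libraries. The corresponding WT difference was -1.12 on the log2 scale (standard error 0.44), at an adjusted p of 0.143 in edgeR. The pump paralog Atp2a3, named after its values were seen as the only gene of the list that fell in WT, went there from 21.3 ± 1.81 (SD, n = 4) to 13.95 ± 0.949 CPM (SD, n = 2; -0.61, adjusted p = 0.0279 in edgeR). In HCN4F its log2 difference was -0.13 (adjusted p = 0.499 in edgeR). The skeletal muscle pump Atp2a1 had a mean of 0.588 CPM over all libraries and passed in no comparison.

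Of the release complex and its modulators, Asph, whose products include junctin, rose in HCN4F from 134 ± 19.3 to 184 ± 12.6 CPM (SD, n = 4 each; 0.46, adjusted p = 0.00481 in edgeR). In WT it was 155 ± 14.9 (SD, n = 4) and 198 ± 11.5 CPM (SD, n = 2; 0.35, adjusted p = 0.0879 in edgeR). Jsrp1, which encodes a junctional SR protein known from skeletal muscle, rose in HCN4F from 0.452 to 1.20 CPM on average (1.43, adjusted p = 0.00476 in edgeR). Fkbp1b, whose protein FKBP12.6 binds the ryanodine receptor, had a mean of 0.354 CPM and passed in no comparison.

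In the SR lumen and its counter-ion partners, Srl, which encodes the calcium-binding protein sarcalumenin, rose in both genotypes. It went from 813 ± 49.5 (SD, n = 4) to 1050 ± 93.7 CPM (SD, n = 2) in WT (0.37, adjusted p = 0.0490 in edgeR). In HCN4F it went from 747 ± 91.2 to 973 ± 31.1 CPM (SD, n = 4 each; 0.38, adjusted p = 0.00699 in edgeR). Sypl2, which encodes the triad protein mitsugumin 29, had 0.274 to 0.506 CPM in HCN4F-Sham and 1.68 to 2.28 CPM in HCN4F-TAC (2.45, adjusted p = 6.95e-05 in edgeR). In WT-TAC it had 1.68 and 2.46 CPM, and the log2 fold change in WT was 1.03 (standard error 0.29, adjusted p = 0.0523 in edgeR). In WT-Sham it had 0.686 to 1.61 CPM, above the Sham level in HCN4F (-1.51, adjusted p = 0.0411 in edgeR), and the difference of its TAC responses was 1.42 (adjusted p = 0.418 in edgeR).

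Of the kinases, Camk2b, a subunit gene of the calcium/calmodulin-dependent kinase CaMKII, fell in HCN4F from 14.1 ± 3.80 to 8.70 ± 0.842 CPM (SD, n = 4 each; -0.70, adjusted p = 0.0139 in edgeR). In WT the log2 fold change of Camk2b was -0.13 (standard error 0.21, adjusted p = 0.748 in edgeR). The difference of its TAC responses was -0.57 (adjusted p = 0.537 in edgeR). Camk2d, the main cardiac CaMKII gene, had 110 ± 15.9 CPM in WT-Sham and 138 ± 0.604 CPM in WT-TAC, and 104 ± 15.5 and 128 ± 11.3 CPM in HCN4F (SD, n = 4, with 2 in WT-TAC), and did not pass after TAC in WT (adjusted p = 0.159) or HCN4F (adjusted p = 0.0831) in edgeR's test. The exchanger paralog Slc8a2 rose in HCN4F from 1.72 ± 0.318 to 2.77 ± 0.173 CPM (SD, n = 4 each; 0.69, adjusted p = 0.0154 in edgeR). In WT the log2 fold change of Slc8a2 was 0.39 (standard error 0.21, adjusted p = 0.287 in edgeR). The difference of its TAC responses was 0.30 (adjusted p = 0.769 in edgeR).

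**Figure D5:**
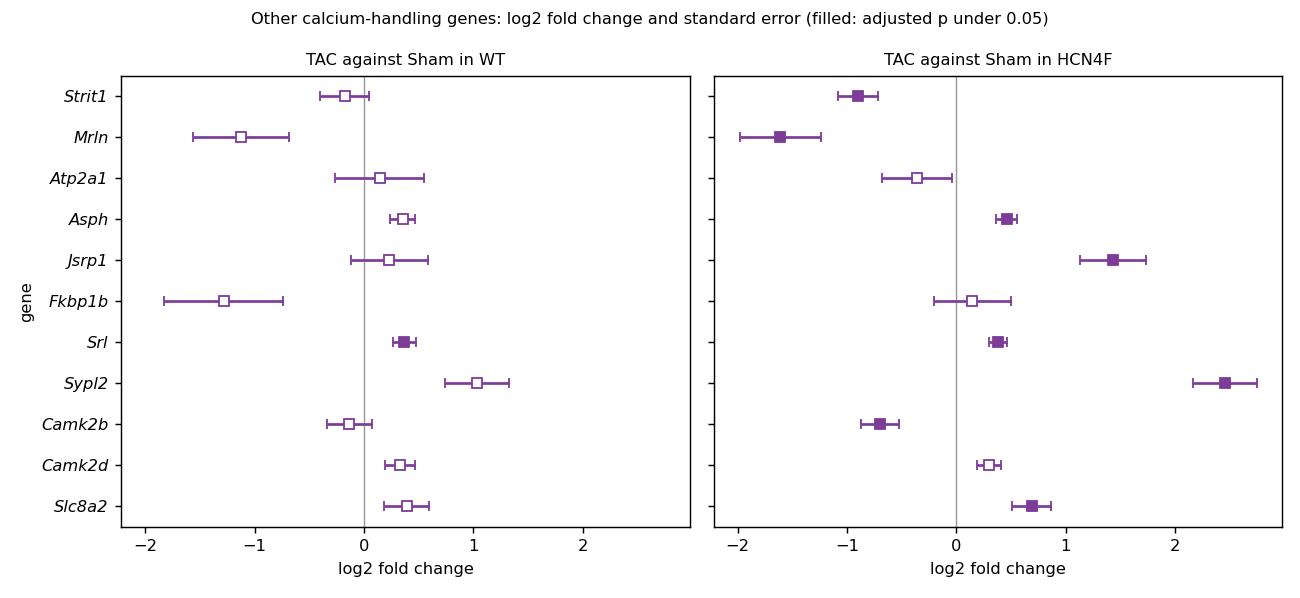
Log2 fold change after TAC with its standard error from edgeR for 11 named genes of the wider calcium-handling list, in WT (left) and HCN4F (right), with filled points where the adjusted p was under 0.05. Srl is filled in both panels, while Strit1, Mrln, Asph, Jsrp1, Sypl2, Camk2b and Slc8a2 are filled in HCN4F.

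Markers of cell types differed by surgery as well. After TAC in HCN4F, 5 of 8 ventricular cardiomyocyte genes fell (Tnnt2, Myl2, Tnni3, Hey2 and Myh6) and Actc1 rose, where 6.41% of all tested genes fell and 7.2% rose, and their summed level was 59044 to 63591 CPM in HCN4F-Sham and 50743 to 57076 CPM in HCN4F-TAC. In WT, Tnnt2 and Tnni3 fell, where 1.62% of all tested genes did, with 67596 to 70295 CPM in Sham and 62323 to 62403 CPM in TAC hearts. Of 6 fibroblast genes, 3 rose in HCN4F (Col1a1, Col1a2 and Lum), against 7.2% of all tested genes, and 0 in WT, against 2.92%. In WT their summed level was 599 to 613 CPM in Sham and 553 and 652 CPM in TAC hearts. Also in WT, the 4 smooth muscle genes summed to 290 to 409 CPM in Sham and 201 and 215 CPM in TAC hearts, and the 4 erythroid genes to 96.7 to 210 and 84.7 and 94.3 CPM, with 0 genes of either list passing in edgeR. Their part in the rise of Slc8a1 was not tested. In HCN4F the summed level was 585 to 747 CPM of fibroblast genes in HCN4F-Sham and 714 to 1151 CPM in HCN4F-TAC. Mitochondrial genes took 17.1% to 21.4% of counts in HCN4F-Sham and 13.9% to 18.6% in HCN4F-TAC. The part of these shifts in the fall of Hrc and Trdn was not tested. Without HCN4F-TAC replicate 2, the library with the most Sln, Myl7 and Myl4 but the least Kcnj3 and Kcnj5, the calls in HCN4F stood: Hrc was at -0.40 (adjusted p = 0.00487), Trdn at -0.29 (adjusted p = 0.0308) and Casq2 at 0.46 (adjusted p = 0.0401) in edgeR.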

How the data were processed

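Left ventricular mRNA of 14 samples was sequenced on an Illumina platform. The authors deposited raw counts, whole numbers of reads per gene, without normalization. The submitters' processing notes name the build GRCm38, while the aligner, the counting program and the use of strand are not given in the sources used here. The table holds 2 further columns of per-sample values, which were not used. The study describes 4 biological replicates per group, and WT-TAC samples beyond the 2 used were not analysed here.

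Of 49315 genes, edgeR's filterByExpr by group kept 15292. Counts were scaled with TMM, and all 14 libraries were fitted with a mean per group in edgeR 4.0.16 (R 4.3.3), using the robust quasi-likelihood test, and p-values were adjusted over all 15292 genes by Benjamini-Hochberg. Every adjusted p, unless stated otherwise, comes from this test. A member was called at an adjusted p under 0.05, with the study's added limit on log2 fold change as a stricter rule. CPM carry no pseudocount, and log2 CPM for ratios and correlations used a prior count of 2. Standard errors are the log2 fold change divided by the square root of its F value. Positions, exon lengths and reading frames come from GENCODE release M21 (99.3% of gene IDs found), and promoters from RefSeq, which lists 7 of the 10 members.

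The members and lists were chosen with earlier results of these data known. The text names all members and the 3 genes most like Atp2a2, Sln and Casq1. Of the wider list it names genes that passed in a comparison (at most the 8 with the smallest adjusted p). Strit1, Atp2a1, Fkbp1b and Camk2d were to be named in any case, and Atp2a3 was added after its values were seen. Alternatives were DESeq2 1.42.0 (all groups, or those compared), edgeR restricted to the groups compared, size factors of DESeq2, 2 other filters (none, or a mean of 1 CPM or more), estimation without the robust option, a block for replicate number, and leaving out each library. The steps were tested on simulated data with planted changes larger than those of the called members, so recovery of smaller changes was not tested. Figures were drawn with matplotlib 3.10.9.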

Additional observations from a re-analysis of the deposited data

Results flagged for a closer look

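Of 29 groups of 4 libraries with any reads of a member, 3 held a library far from the other 3, by the gap to its nearest neighbour relative to the range of the group. Chance gives about 1 in 20 such groups. Sln stood out in HCN4F-TAC replicate 2, with 3.79 CPM against at most 0.285 CPM in the other libraries of its group. Sln also stood out in HCN4F-Sham replicate 4, with 0.272 CPM, or 9 reads, against 0 in the other 3. With the other 3 at 0, any read would have set this library apart, so the rate of chance does not apply to it. Ryr2 was low in HCN4F-Sham replicate 2, with 1522 CPM against 1840 to 1870 CPM, and without that library its log2 fold change after TAC in HCN4F was -0.32 (adjusted p = 0.0831 in edgeR).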

How the results depend on the processing

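The 3 members called after TAC in HCN4F (Hrc, Trdn and Casq2) kept their calls in all 16 alternative fits. Their count was 3 to 5 when 1 library was left out, with 5 without HCN4F-Sham replicate 1 (13.6% of all tested genes), and 0 under the study's threshold. The single call after TAC in WT was less stable. The count was 2 with DESeq2 on all groups and with non-robust estimation, where 8.66% and 4.39% of all tested genes passed, 6 with DESeq2 or edgeR on the compared groups (15.2% and 13.6%), 0 with no filter (2.92%) and under the study's threshold, and 0 to 1 with 1 library left out. Between HCN4F and WT in TAC hearts it was 0 to 1, with Hrc called without HCN4F-TAC replicate 3, where 2.97% of all tested genes passed. With the replicate number as a block the count in WT was 0 (1.47% of all tested genes), and that in HCN4F stayed 3. Deviations from the group means correlated at -0.18 to 0.22 between same-numbered libraries of different groups and at -0.29 to 0.36 between the others. No pairing by number was seen, and a shared surgery day or batch was not tested. Leaving out 1 library moved 4 small log2 differences across 0, none of them called. These were Casq2 between genotypes in TAC hearts (-0.17 to 0.11), Casq2 (-0.059 to 0.22) and Jph2 (-0.10 to 0.10) in the difference of TAC responses, and Pln between genotypes in Sham hearts (-0.12 to 0.018). The log2 ratio of Casq1 to Casq2 between genotypes in Sham hearts ranged from -0.54 to 0.015 and that of Pln to Atp2a2 after TAC in HCN4F from -0.10 to 0.023. The cause was not tested. The ratio of Sln to Atp2a2 was not calculated, as 11 of 14 libraries had at most 3 reads of Sln. With 2 libraries in WT-TAC, one left out leaves a single library, which is assumed to vary like the other groups.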
